A study of Homo sapiens with 27 samples.

Results

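Pseudouridine (Ψ) in tRNA of HEK293T cells lacking TRUB1 was set directly against that of HEK293T cells lacking PUS1, with no wild-type library in the comparison. HEK293T is a human embryonic kidney line. The 4 libraries are treated libraries 1 and 2 of the TRUB1 knockout (KO) and treated libraries 1 and 2 of the PUS1 KO. They were chosen by genotype and treatment out of the 27 libraries of the series. The series holds 9 groups of cells, with 2 treated libraries and 1 untreated library each. The groups are wild type, knockouts, and a DKC1 knockdown and its control. The pairs are technical replicates, so every p-value below measures technical spread only. The labels do not say whether a knockout is 1 clone, how the gene was disrupted, or whether the cells were otherwise altered. All libraries were made from small RNA demethylated with the bacterial enzyme AlkB. The treated ones went through PRAISE, a bisulfite-type chemistry after which Ψ is read as a deletion, and the untreated ones did not. The level of a site is the share of covering reads that carry the deletion. The joined tables list 705 sites in 250 cytosolic tRNAs and 35 sites in mitochondrial tRNA, and 702 and 33 of them had at least 20 reads in all 4 libraries. The 5 sites below that minimum were not tested: position 39 of tRNA-Cys-GCA-16, positions 27 and 39 of tRNA-Lys-CTT-8, positions 39&40 of mt-TRNG and positions 27&28 of mt-TRNI. The libraries of wild type and of the PUS7 KO, 2 treated each, are given beside the comparison where a result turns on them.

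Ψ synthases turn a uridine of the RNA chain into its isomer, each at its own set of positions. TRUB1 is a human member of the TruB/Pus4 family. It acts on position 55, the uridine after position 54 in the T loop of most tRNAs, and on a few other RNAs that carry the same loop sequence. PUS10 is a second human enzyme known to act on the T loop of cytosolic tRNA. PUS1 acts in the cytosol and in mitochondria, mainly at positions 27 and 28 at the top of the anticodon stem. The PUS1 KO can therefore stand in for wild type at position 55, while at positions 27 and 28 it lacks the enzyme itself. TRUB1 and PUS1 mRNA are not part of these small RNA tables, so the knockouts are checked here by their tRNA sites alone.

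Shown are the mitochondrial tRNAs with a listed site at position 55. They were chosen because as a set they had the largest mean fall of any position in the TRUB1 KO. Even so, tRNA-Glu-TTC-2 of the cytosol differed more than 3 of them. The 9 capitals near the 3′ end are positions 53 to 61, counted by taking the first base of the listed run of T as position 54, and a capital T or TT nearer the middle is a listed site at position 27 or 28. Sequences are the DNA letters of the GENCODE release 29 transcripts (GRCh38), 5′ to 3′.
mt-TRNE (chrM:14674-14742, minus strand): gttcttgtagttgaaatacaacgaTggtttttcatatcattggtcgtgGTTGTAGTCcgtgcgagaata
mt-TRNL1 (chrM:3230-3304, plus strand): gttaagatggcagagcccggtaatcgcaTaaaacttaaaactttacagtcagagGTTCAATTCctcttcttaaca
mt-TRNN (chrM:5657-5729, minus strand): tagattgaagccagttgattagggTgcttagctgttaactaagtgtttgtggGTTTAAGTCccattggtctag
mt-TRNP (chrM:15956-16023, minus strand): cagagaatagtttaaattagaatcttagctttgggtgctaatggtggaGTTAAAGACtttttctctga
mt-TRNQ (chrM:4329-4400, minus strand): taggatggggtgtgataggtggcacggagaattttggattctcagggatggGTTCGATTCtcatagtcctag
mt-TRNS1 (chrM:7446-7514, minus strand): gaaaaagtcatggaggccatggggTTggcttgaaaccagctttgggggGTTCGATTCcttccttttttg

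The first and last bases of the listed mitochondrial sites are 55 in number, and all 55 fell on a T of these transcripts by their chromosome coordinates. The base numbers listed within the tRNA differed from those counted here at position 68 of mt-TRNF, 32 of mt-TRNP and 44-45 of mt-TRNL1. Because a deletion inside a run of T cannot be placed on one of its bases, the tables list the run, which at position 55 is TT, or TTT in mt-TRNN. The letters GTTCNANNC, in which N is any base and which match the consensus known for TRUB1 sites, were found in 3 of the 6 tRNAs, mt-TRNL1, mt-TRNQ and mt-TRNS1. On the strand of the tRNA they were in no other of the 22 mitochondrial tRNAs, a share of 13.6%. The looser GTTNNANNC, chosen after the sequences were seen, was in all 6 and in 8 of the 22 (36.4%). A match says nothing of whether a site is used.

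In mitochondrial tRNA the TRUB1 KO was lower than the PUS1 KO at position 55 in all 6 tRNAs tested. Over the 33 mitochondrial sites tested, 24.2% were called lower and 33.3% higher, where a call needs an adjusted p under 0.05 and a difference of at least 10 percentage points. The mean over the 6 sites was 2.63% and 2.77% in the TRUB1 KO libraries, against 74.9% and 76.1% in the PUS1 KO libraries and 70.9% and 70.8% in wild type. The mean difference from the PUS1 KO was -72.8 points. The libraries of the knockouts did not overlap at any of the 6 sites, which was so with the TRUB1 KO lower at 36.4% and higher at 48.5% of the 33.

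mt-TRNL1, a leucine tRNA, showed the largest difference, with 2.75% and 3.33% in the TRUB1 KO and 95.3% and 97.1% in the PUS1 KO, a difference of -93.2 points. mt-TRNS1, a serine tRNA, kept the most, with 9.10% and 10.2% in the TRUB1 KO, against 90.9% and 90.3% in the PUS1 KO. mt-TRNP, the proline tRNA and by far the deepest, had 0.680% and 0.617% in the TRUB1 KO over 31759 and 30327 reads, against 69.0% and 69.9% in the PUS1 KO over 9191 and 8335 reads. The residual in these 3 tRNAs thus differed between tRNAs by more than the spread of the libraries. mt-TRNQ, for glutamine, had 1.49% and 1.34% in the TRUB1 KO and 72.6% and 76.9% in the PUS1 KO. mt-TRNE, for glutamate, had 0.764% and 0.558% in the TRUB1 KO and 51.4% and 51.2% in the PUS1 KO. mt-TRNN, for asparagine, had 1.02% and 0.550% in the TRUB1 KO and 70.2% and 71.2% in the PUS1 KO, where the PUS1 KO libraries held 57 and 59 reads. The untreated libraries of both knockouts read at most 0.512% at these sites, so in mt-TRNE, mt-TRNN and mt-TRNP the TRUB1 KO mean stood within 0.5 points of its background. Position 55 had 1.70 to 8.93 times as many covering reads in the TRUB1 KO as in the PUS1 KO in these tRNAs. The part of coverage in the differences was not tested.

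**Figure D1:**
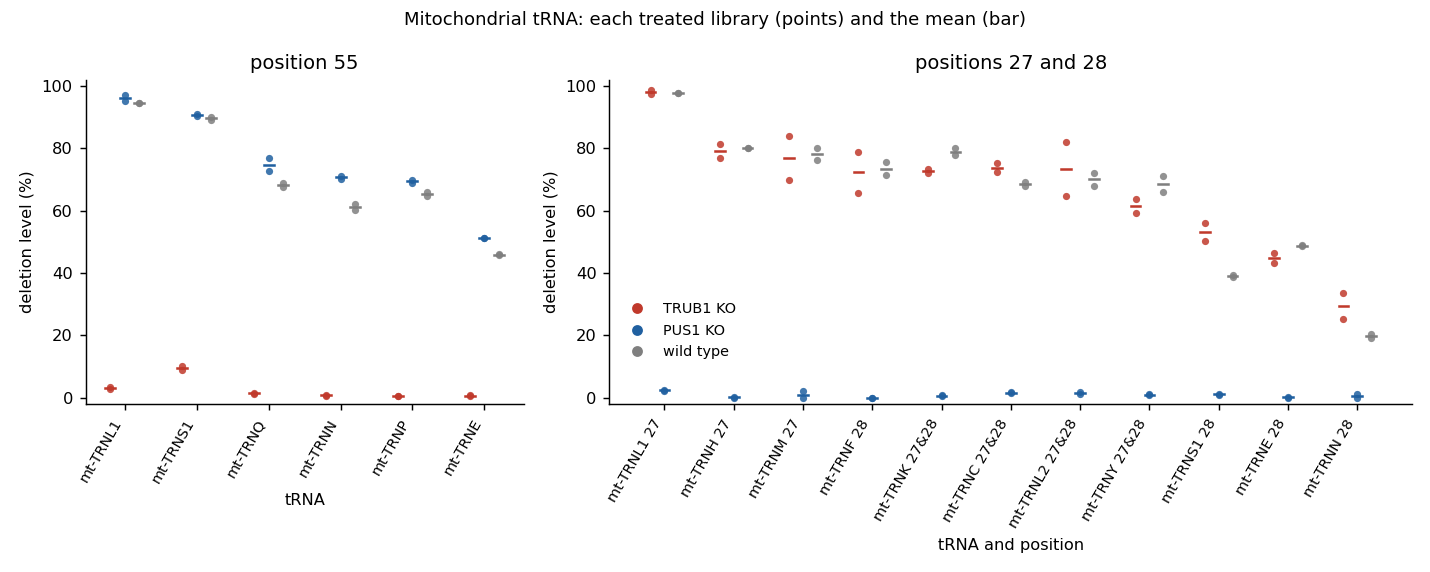
Deletion level (percent, vertical axis) at position 55 of 6 mitochondrial tRNAs (left) and at positions 27 and 28 of 11 (right), with a point for each treated library and a bar at the mean of 2, in the order TRUB1 KO, PUS1 KO, wild type. At position 55 the TRUB1 KO lies at most at 10.2% and the other genotypes far above; at 27 and 28 the PUS1 KO is the low one.

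In cytosolic tRNA the TRUB1 KO was lower than the PUS1 KO at 82 of the 238 sites at position 55 and higher at none, by the quasi-binomial test with limma-moderated dispersion. Over all 702 sites, 19.4% were called lower and 16.8% higher. The mean level over the 238 sites was 68.4% and 68.9% in the TRUB1 KO libraries, against 79.2% and 78.9% in the PUS1 KO libraries and 78.6% and 78.6% in wild type. The knockouts' means did not overlap, and they differed by -10.4 points. With 2 libraries a side, an exact two-sided permutation test cannot give a p under 0.333, so none is given for the means. The median difference was -5.82 points, beside -1.28 over all sites, and 215 of 238 differences were negative. Both TRUB1 KO libraries lay below both PUS1 KO libraries at 203 sites and above at 17, beside 55.8% and 30.3% of all 702. A further 46 sites were at least 5 points lower without being called.

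**Figure D2:**
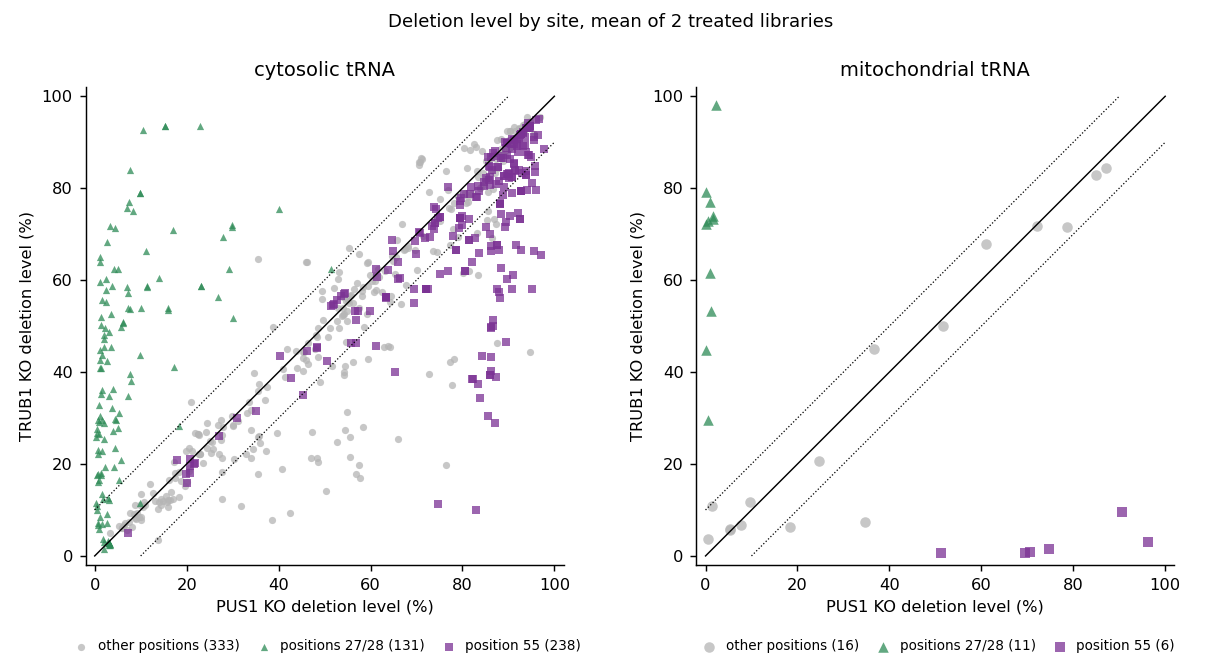
Level in the TRUB1 KO (vertical axis, percent) against the PUS1 KO (horizontal axis, percent), as means of 2 treated libraries, for 702 cytosolic (left) and 33 mitochondrial (right) sites. The solid line marks equal levels and the dotted lines a difference of 10 points; squares of position 55 spread down from the line in cytosolic tRNA and lie at the bottom in mitochondrial tRNA, and triangles of positions 27/28 lie along the left edge.

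Cytosolic position 55 thus kept far more deletion than the mitochondrial sites. The cytosolic sites named for the largest falls, and those nearest to no difference, are also listed as runs, such as bases 53-54 of tRNA-Glu-TTC-2. Their deletions cannot be placed on a single base, so the part of position 55 itself in what remained was not tested. An exception among the named sites is tRNA-Ala-AGC-9, listed as base 55 alone. Among the 82 sites called lower, the TRUB1 KO mean ran between 9.99% and 84.7%, and 22 of them were under 50%. tRNA-Glu-TTC-2, a glutamate tRNA, stood lowest and moved most. It had 9.97% and 10.0% in the TRUB1 KO, against 82.6% and 83.2% in the PUS1 KO, a difference of -72.9 points (adjusted p = 4.6e-08, limma-moderated model) over at least 122722 reads a library. The genes of this name in RefSeq (GRCh38.p14) are TRE-TTC2-1 at chr13:44917927-44917998 and TRE-TTC2-2 at chr15:26082234-26082305, matched by name alone as were 242 of the 250 tRNAs. Its close relative tRNA-Glu-CTC-2 (TRE-CTC2-1, chr1:248874248-248874319) had 30.4% and 30.7% in the TRUB1 KO and 85.5% and 85.7% in the PUS1 KO. tRNA-Glu-CTC-1 had 36.3% and 38.5% in the TRUB1 KO and 83.3% and 83.5% in the PUS1 KO. In each of these glutamate tRNAs both TRUB1 KO libraries lay below both PUS1 KO libraries by more than 44 points.

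Lysine tRNAs were also among the 10 largest differences, and tRNA-Lys-CTT-5 and tRNA-Lys-TTT-6 followed tRNA-Glu-TTC-2 in size. tRNA-Lys-TTT-6 had 28.03% and 29.82% in the TRUB1 KO, against 87.6% and 86.5% in the PUS1 KO, a difference of -58.1 points. tRNA-Lys-TTT-1 had 38.5% and 39.3% in the TRUB1 KO and 87.8% and 86.8% in the PUS1 KO. tRNA-Lys-CTT-5 (TRK-CTT5-1, chr16:3180554-3180626) had 12.7% and 9.87% in the TRUB1 KO and 74.7% and 74.8% in the PUS1 KO, over 151 to 537 reads a library. Wild type read 53.6% and 50.9% at this last site, so the difference was -63.5 points against the PUS1 KO and -41.0 against wild type. It is 1 of 2 sites at position 55 where the PUS1 KO was itself called higher than wild type, as were 7.7% of 701 sites in all. The other is tRNA-Cys-GCA-23, a cysteine tRNA with 34.5% and 34.2% in the TRUB1 KO and 84.6% and 82.9% in the PUS1 KO, where wild type read 75.7% and 71.5%. At both, the reference changes the size of the difference and not its call.

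The threonine tRNAs complete the 10 largest differences. tRNA-Thr-AGT-1 had 39.3% and 39.5% in the TRUB1 KO and 85.9% and 85.9% in the PUS1 KO, and tRNA-Thr-AGT-5 had the same values to the first decimal, over 454422 and 454318 reads or more. tRNA-Thr-AGT-3 had 40.3% and 40.1% in the TRUB1 KO and 86.1% and 86.4% in the PUS1 KO. Near-equal counts of this kind were common, and whether such tRNAs share reads was not tested: 49 of the 238 sites matched another member of their isoacceptor within 2% in covering and deleted reads in all 4 libraries. Counting each such group once leaves 210 sites, of which 68 hold a call. Sites of 1 isoacceptor are therefore not counted here as independent of each other.

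By isoacceptor, that is by amino acid and anticodon, position 55 was tested in 47. In 26 of them at least 1 site was called lower, in 9 every site was, and in 21 none was. Among isoacceptors with at least 3 sites the most negative medians were those of tRNA-Thr-AGT at -44.5 points (6 of 6 sites lower), tRNA-Lys-TTT at -43.7 (7 of 7), tRNA-Asp-GTC at -32.7 (3 of 3), tRNA-Glu-TTC at -32.2 (4 of 5) and tRNA-Thr-CGT at -23.6 (4 of 4). tRNA-Asp-GTC, for aspartate, had a median of 58.1% in the TRUB1 KO and 95.1% in the PUS1 KO, and tRNA-Thr-CGT had 63.1% and 88.1% in the same order. Isoacceptors of a single amino acid did not move alike: the median difference of tRNA-Thr-TGT was -2.04 points, with 1 of 6 sites lower, beside the -44.5 of tRNA-Thr-AGT.

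At the other end, the median of tRNA-Pro-TGG was +2.73 points, of tRNA-Ile-TAT +0.56, of tRNA-Gly-TCC +0.40, of tRNA-Arg-CCT -0.82 and of tRNA-Met-CAT -0.85. Of these, 1 site of tRNA-Met-CAT was called. The proline tRNAs stood at medians of 55.6% in the TRUB1 KO and 52.8% in the PUS1 KO for tRNA-Pro-TGG, while the glycine tRNA-Gly-TCC stood at 89.9% and 89.5%. The sites nearest to no difference were tRNA-Gly-TCC-2, with 90.7% and 90.8% in the TRUB1 KO and 91.0% and 90.7% in the PUS1 KO, tRNA-Val-AAC-2, tRNA-Ala-AGC-6, tRNA-Gly-TCC-1 and tRNA-Ile-TAT-1, all within 0.27 points. Sites with little difference thus included some near 90% in both knockouts. tRNA-Trp-CCA had a low median, 20.3% in the TRUB1 KO and 21.8% in the PUS1 KO, with a highest member at 68.8% in the TRUB1 KO and 64.6% in the PUS1 KO, and none of its 5 sites was called.

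**Figure D3:**
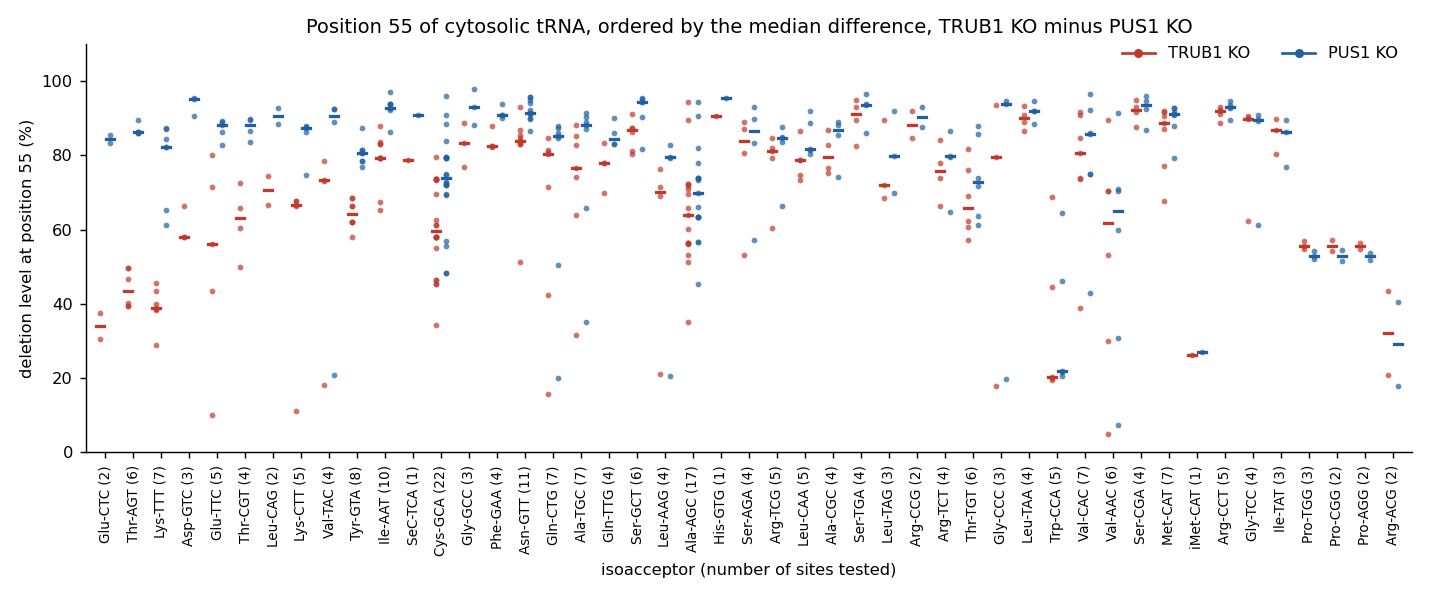
Level at position 55 (percent, vertical axis) for each of 238 cytosolic sites, grouped by isoacceptor (horizontal axis, with the number of sites), TRUB1 KO left and PUS1 KO right in each pair, with bars at the medians. Isoacceptors run from the most negative median difference, -50.5 points in the 2 sites of tRNA-Glu-CTC, to the most positive, +2.94 in the 2 sites of tRNA-Arg-ACG.

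Members of 1 isoacceptor also differed among themselves. The 5 sites of tRNA-Glu-TTC had TRUB1 KO means between 9.99% and 80.2%, while in the PUS1 KO they kept to a median of 88.3%. tRNA-Glu-TTC-1 had 80.1% and 80.3% in the TRUB1 KO and 88.7% and 89.2% in the PUS1 KO, a difference of -8.78 points that was not called. tRNA-Glu-TTC-14 had 43.5% and 43.2% in the TRUB1 KO, against 86.1% and 86.4% in the PUS1 KO. By contrast the 6 sites of tRNA-Thr-AGT kept to between 39.4% and 49.7% in the TRUB1 KO. The members of tRNA-Glu-TTC thus differed from each other by far more than the libraries of a genotype did.

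The question the direct comparison was made for is which TRUB1 changes at position 55 do not rest on the wild-type libraries. Only the levels can be free of wild type, because the sites listed are the same for wild type and the knockouts. Against wild type 77 of the 238 cytosolic sites were lower in the TRUB1 KO, with 11.1% of 701 sites lower and 0.428% higher in all. The comparisons share the TRUB1 KO libraries. Of the 77 sites, 76 were also called lower against the PUS1 KO (98.7% of the calls against wild type and 92.7% of the 82 against the PUS1 KO), as were all 6 mitochondrial sites, beside 18.2% of mitochondrial sites lower and 6.06% higher than wild type. Against the PUS7 KO as another reference 82 sites were lower, with 15% of 701 sites lower and 12.1% higher in all. Of the 76, 74 were lower against all 3 genotypes. The mean over the 238 sites was 78.1% and 81.5% in the PUS7 KO libraries, which lay further apart than those of the other genotypes. One site was higher against the PUS7 KO, tRNA-Gly-TCC-4, with 60.6% and 64.2% in the TRUB1 KO, against 31.6% and 36.3% in the PUS7 KO and 61.3% and 61.3% in the PUS1 KO.

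The site called against wild type and not against the PUS1 KO was tRNA-Cys-GCA-20. It had 44.82% and 48.05% in the TRUB1 KO, against 55.6% and 55.7% in the PUS1 KO and a mean of 58.8% in wild type, which gives -9.24 points against the PUS1 KO and -12.3 against wild type. Its call thus turns on a difference of about 3 points between the references. Of the 6 sites called against the PUS1 KO and not against wild type, 5 fell short of wild type by 8 to 10 points. tRNA-Tyr-GTA-7 differed by -14.9 points from the PUS1 KO and -8.41 from wild type. tRNA-Leu-AAG-3 differed by -13.7 from the PUS1 KO and -8.89 from wild type. For tRNA-Asn-GTT-7 the differences were -11.1 and -9.86, for tRNA-Ala-AGC-9 -10.3 and -8.79, and for tRNA-Ile-AAT-6 -10.1 and -9.80, in the same order. Besides their size, tRNA-Tyr-GTA-7 and tRNA-Leu-AAG-3 also missed on the adjusted p against wild type, 0.080 and 0.105 (limma-moderated model). The sixth, tRNA-Asn-GTT-24, had 52.5% and 50% in the TRUB1 KO, against 88.24% and 85.05% in the PUS1 KO and 73.2% and 83.6% in wild type, over 61 to 122 reads, and its adjusted p was 0.010 against the PUS1 KO and 0.080 against wild type (limma-moderated model). Its untreated libraries read 13.8% in the TRUB1 KO and 16.3% in the PUS1 KO, the highest background of any site called at position 55. The calls of tRNA-Asn-GTT-24 and tRNA-Leu-AAG-3 were lost when either PUS1 KO library was left out, and those of tRNA-Ala-AGC-9 and tRNA-Tyr-GTA-7 when PUS1 KO library 1 was.

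At positions 27 and 28 the picture was reversed, because the PUS1 KO was the low genotype. The TRUB1 KO was higher than the PUS1 KO at 107 of 131 cytosolic sites and lower at none. The mean level was 38.5% and 40.1% in the TRUB1 KO libraries, against 6.52% and 6.58% in the PUS1 KO libraries and 38.05% and 37.96% in wild type. Position 27 was higher at 46 of 46 sites and position 28 at 61 of 85. Against wild type 3 of the 131 sites were higher in the TRUB1 KO and none lower, while the PUS1 KO was lower than wild type at 105, with 16% of 701 sites lower in all. In the direct comparison a change after loss of TRUB1 and a change after loss of PUS1 cannot be told apart at these positions.

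The largest differences were in lysine and glutamine tRNAs. Position 27 of tRNA-Lys-CTT-3 (TRK-CTT3-1, chr16:3157405-3157477) had 92.1% and 93.0% in the TRUB1 KO and 10.4% and 10.6% in the PUS1 KO, a difference of 82.1 points (adjusted p = 3.9e-07, limma-moderated model). That of tRNA-Lys-CTT-11 had 93.2% and 93.7% in the TRUB1 KO and 14.5% and 15.9% in the PUS1 KO, and tRNA-Lys-CTT-7 differed from it by no more than 0.13 points in any of these libraries. tRNA-Lys-CTT-4 had 83.5% and 84.5% in the TRUB1 KO and 7.63% and 7.70% in the PUS1 KO. The TRUB1 KO differed from wild type by less than 1 point at each of these sites. tRNA-Lys-CTT-2 kept the most in the PUS1 KO among them, 22.7% and 23.2%, against 93.1% and 94.0% in the TRUB1 KO. tRNA-Lys-CTT-5 had 74.8% and 79.0% in the TRUB1 KO and 5.67% and 9.26% in the PUS1 KO. Position 28 of tRNA-Gln-TTG-3 had 77.9% and 79.9% in the TRUB1 KO and 9.93% and 9.93% in the PUS1 KO, and tRNA-Gln-TTG-1 the same to within 0.1 points. Over the 107 sites, coverage in the TRUB1 KO was a median of 0.632 times that in the PUS1 KO, beside 1.72 times at the 82 lower sites of position 55. The ratio was 1.58 at the sites of position 55 that were not called, and at the remaining positions 0.984 at lower and 1.27 at higher sites. The part of coverage in the differences at these sites was not tested.

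Both lysine isoacceptors showed both kinds of change. tRNA-Lys-CTT was lower in the TRUB1 KO than in the PUS1 KO at 5 of 5 sites of position 55. It was higher at 7 of 7 sites of position 27, with 0 of them called higher than wild type. tRNA-Lys-TTT holds the only 3 cytosolic sites of positions 27 and 28 that were higher in the TRUB1 KO against wild type as well. tRNA-Lys-TTT-3 had 64.1% and 66.1% at position 27 in the TRUB1 KO, against 1.25% and 1.16% in the PUS1 KO and 54.7% and 53.9% in wild type. tRNA-Lys-TTT-4 had 59.6% and 59.8% in the TRUB1 KO, against 1.30% and 1.08% in the PUS1 KO and 49.5% and 49.3% in wild type. tRNA-Lys-TTT-5 had 62.8% and 65.3% in the TRUB1 KO, against 1.12% and 1.05% in the PUS1 KO and 52.7% and 52.0% in wild type. With almost no deletion left, the PUS1 KO cannot show whether the step of 10.3 to 11.7 points over wild type rests on the wild-type libraries. The PUS7 KO can serve as another reference there. It read 48.9% for tRNA-Lys-TTT-3, 45.8% for tRNA-Lys-TTT-4 and 46.7% for tRNA-Lys-TTT-5, as means of 2 libraries, and the TRUB1 KO was called higher at all 3, by 16.2, 13.9 and 17.3 points. The TRUB1 KO thus lay above both wild type and the PUS7 KO, by amounts that differed with the reference. The TRUB1 KO mean was the highest in the other 3 members too, without such a call: the differences from wild type were 1.63 points in tRNA-Lys-TTT-1, 1.45 in tRNA-Lys-TTT-2 and 2.59 in tRNA-Lys-TTT-6. At position 55 all 7 members were lower in the TRUB1 KO, by 15.5 points in tRNA-Lys-TTT-7 up to the 58.1 of tRNA-Lys-TTT-6.

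**Figure D4:**
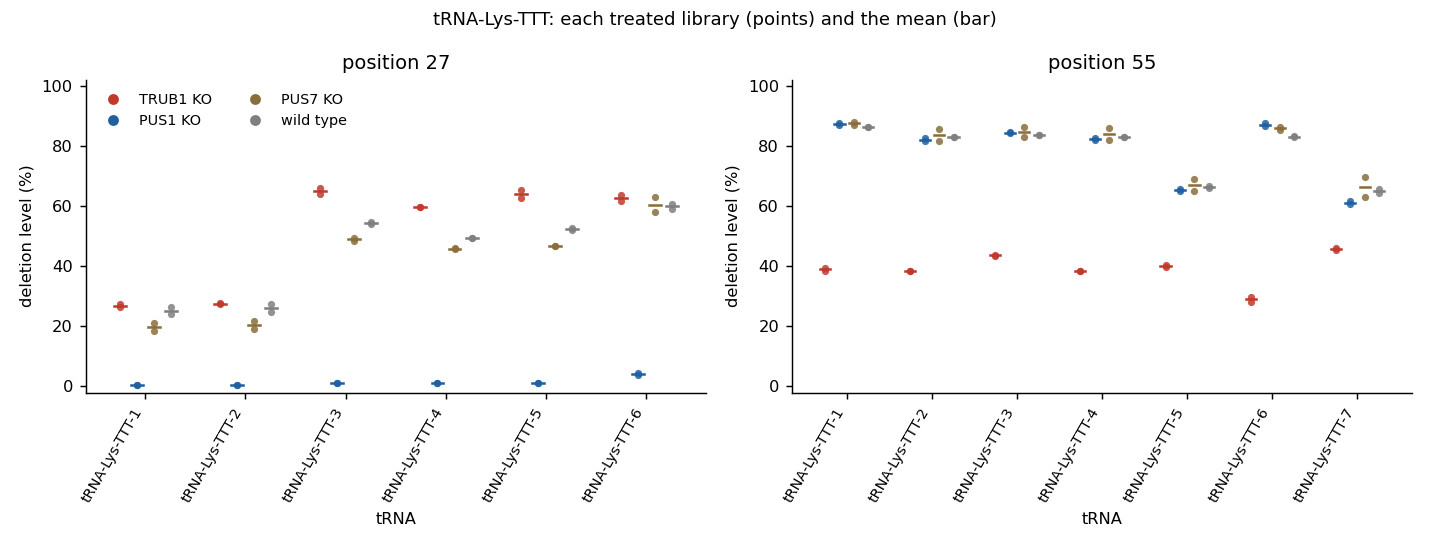
Level (percent, vertical axis) at position 27 (left) and position 55 (right) of the tRNA-Lys-TTT members, with a point for each treated library and a bar at the mean of 2, in the order TRUB1 KO, PUS1 KO, PUS7 KO, wild type. At position 27 the TRUB1 KO mean is the highest in all 6 members, by 10.3 to 11.7 points over wild type in members 3, 4 and 5 and by 1.45 to 2.59 in the others, and the PUS1 KO is at most 4.403% throughout; at position 55 the TRUB1 KO is the lowest in all 7.

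At a set of sites at position 28 the wild-type libraries stood apart from those of 3 knockouts. The 5 sites of positions 27 and 28 nearest to no difference between the knockouts were all at position 28 of tRNA-Cys-GCA. They are listed as runs, bases 26-28 or 27-29 of the tRNA, so their deletions cannot be placed on 1 base. The sites with the largest differences, in lysine and glutamine tRNAs, are listed as single bases. tRNA-Cys-GCA-8 had 2.90% and 2.81% in the TRUB1 KO, against 2.96% and 2.98% in the PUS1 KO and 10.1% and 9.59% in wild type. tRNA-Cys-GCA-11 had 2.80% and 2.71% in the TRUB1 KO, against 3.07% and 3.10% in the PUS1 KO and 10.2% and 9.75% in wild type. tRNA-Cys-GCA-5, tRNA-Cys-GCA-7 and tRNA-Cys-GCA-9 also stood near 3% in both knockouts. Of the 16 members tested, 13 were not called between the knockouts, with medians of 2.789% in the TRUB1 KO, 3.003% in the PUS1 KO, 2.95% in the PUS7 KO and 8.08% in wild type. In 12 of these 13 both wild-type libraries lay above all 6 libraries of the 3 knockouts. Wild type also stood apart in coverage and background at these 12. Its treated libraries held 833 to 10410 reads, against 4037 to 80553 in the treated libraries of the 3 knockouts. In tRNA-Cys-GCA-8 there were 66484 and 79831 reads in the TRUB1 KO and 56040 and 54739 in the PUS1 KO, against 9872 and 9132 in wild type. The untreated libraries of the 3 knockouts read 0.381% to 0.955% at the 12 sites and that of wild type 0.0388% to 0.122%. The part of coverage and background in these differences was not tested. No difference reached the 10-point threshold, but with a threshold of 5 points 9 sites of positions 27 and 28 were lower in the TRUB1 KO than in wild type, all 9 in tRNA-Cys-GCA, and none of them was lower than in the PUS1 KO. The other 3 members went with the rest of position 28: tRNA-Cys-GCA-15, for one, had 21.1% and 24.5% in the TRUB1 KO and 1.59% and 1.56% in the PUS1 KO.

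**Figure D5:**
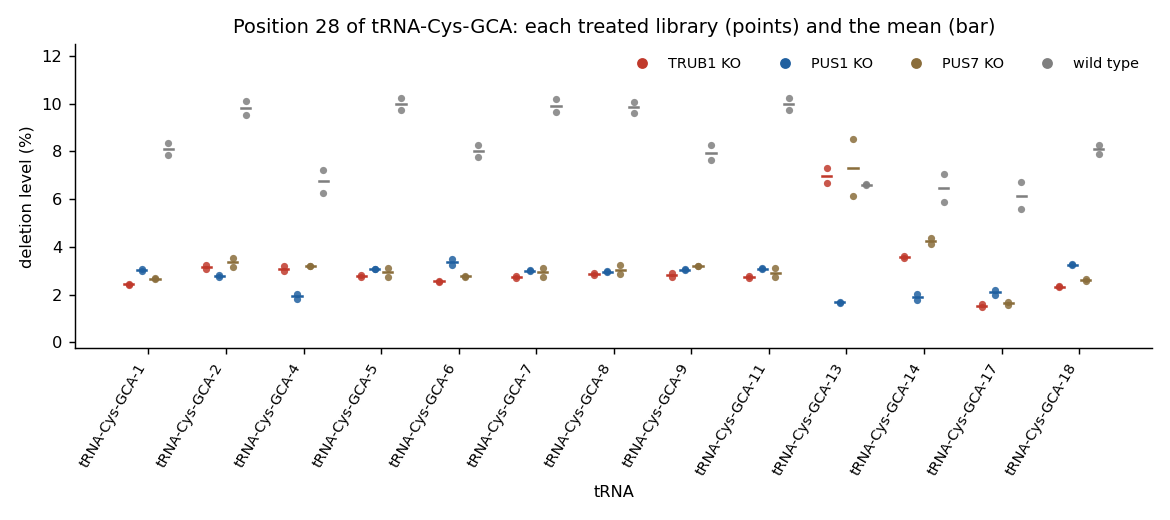
Level (percent, vertical axis) at position 28 of the 13 tRNA-Cys-GCA members not called between the knockouts, with a point for each treated library and a bar at the mean of 2, in the order TRUB1 KO, PUS1 KO, PUS7 KO, wild type. Wild type stands highest in 12 members; in tRNA-Cys-GCA-13 it lies among the TRUB1 KO and PUS7 KO libraries.

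In mitochondrial tRNA positions 27 and 28 were higher in the TRUB1 KO at 11 of 11 sites tested. The mean was 64.3% and 69.5% in the TRUB1 KO libraries, against 0.828% and 1.05% in the PUS1 KO libraries and 66.55% and 64.98% in wild type. Position 27 of mt-TRNL1, whose position 55 went the other way, had 97.5% and 98.6% in the TRUB1 KO and 2.62% and 2.11% in the PUS1 KO, a difference of 95.7 points. This tRNA thus separated the knockouts in both directions. Position 28 of mt-TRNF, for phenylalanine, had 65.8% and 78.8% in the TRUB1 KO over 76 and 52 reads, against 0 deletions in 444 and 456 reads of the PUS1 KO, which allow levels of up to 0.676% and 0.658%. Position 27 of mt-TRNH had 77.0% and 81.4% in the TRUB1 KO and 0.399% and 0% in the PUS1 KO, and that of mt-TRNM 69.9% and 83.9% in the TRUB1 KO and 0% and 2.11% in the PUS1 KO. Positions 27&28 of mt-TRNC, mt-TRNK, mt-TRNL2 and mt-TRNY had TRUB1 KO levels of 59.1% to 82.0% in single libraries, against at most 1.87% in the PUS1 KO. Coverage there was 0.0712 to 0.322 times that of the PUS1 KO. Position 28 of mt-TRNE had 43.3% and 46.4% in the TRUB1 KO, and that of mt-TRNN 33.8% and 25.4%, against at most 1.11% in the PUS1 KO libraries at either. The PUS1 KO was lower than wild type at all 11 of these sites, beside 36.4% of mitochondrial sites lower and 6.06% higher in all. Positions 27&28 of mt-TRNI, below the read minimum, had 57.1% and 80% in the TRUB1 KO over 7 and 5 reads and 0% in both PUS1 KO libraries.

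One mitochondrial site of these positions was higher in the TRUB1 KO against wild type too. Position 28 of mt-TRNS1 had 50.2% and 56.2% in the TRUB1 KO, against 1.26% and 1.04% in the PUS1 KO and 38.8% and 39.4% in wild type, a difference of 14.1 points from wild type. The PUS7 KO mean was 37.5%, and the TRUB1 KO was called higher than it, as at 6.06% of mitochondrial sites, with 18.2% lower. Position 55 of mt-TRNS1 was lower in the TRUB1 KO, as it was in all 6 mitochondrial tRNAs tested there. mt-TRNE, mt-TRNL1 and mt-TRNN shared that fall, and their sites at 27 or 28 were not called against wild type. The other mitochondrial rise against wild type, at position 40 of mt-TRNE, was 10.5 points there and 6.73 against the PUS1 KO, which was not called.

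At the remaining positions of cytosolic tRNA 54 of 333 sites (16.2%) were lower and 11 (3.30%) higher in the TRUB1 KO. Over all 702 sites the shares were 19.4% and 16.8%. The anticodon stem-loop held 198 of the 333 sites, with 48 of the lower and 1 of the higher. There were 28 lower (20.3%) and 1 higher of 138 at positions 38/39. At positions 30 to 32, 14 of 24 (58.3%) were lower, and at positions 34/36, 6 of 13 (46.2%). Of the 54 lower sites, 47 were called higher in the PUS1 KO than in wild type and none was called lower in the TRUB1 KO than in wild type. A further 6 sites were called for neither knockout, and 1 had too few wild-type reads to be tested.

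Position 36 of tRNA-Arg-TCT-1, the last anticodon base of an arginine tRNA (TRR-TCT1-1, chr1:93847573-93847657), differed most. It had 18.1% and 21.4% in the TRUB1 KO, against 75.2% and 77.9% in the PUS1 KO and 15.5% and 14.6% in wild type. The other 3 sites at position 36 were lower in the TRUB1 KO by 23.5 to 27.1 points. In tRNA-Arg-TCT-5 the levels were 31.3% and 31.3% in the TRUB1 KO, over 96 and 83 reads, against 53.4% and 56.2% in the PUS1 KO and 13.1% and 12.1% in wild type. The TRUB1 KO mean stood between wild type and the PUS1 KO at all 4 sites. It was 4.71 to 18.7 points over wild type, with 0 of the 4 called. All 4 sites at this position read 0.152% or less in each PUS7 KO library. The adjusted p of tRNA-Arg-TCT-5 was 0.029 (limma-moderated model), and the call was lost without TRUB1 KO library 1 or without either PUS1 KO library.

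Position 39, in the anticodon stem next to the loop, gave 5 of the 10 sites named for their size at these positions, with at most 2 taken per isoacceptor and position. tRNA-Phe-GAA-6 had deletions in 40.9% of 22 reads and 48% of 25 reads in the TRUB1 KO, against 94.5% and 94.8% in the PUS1 KO. tRNA-Gln-CTG-7 had 43.4% and 49.3% in the TRUB1 KO and 88.5% and 86.6% in the PUS1 KO. tRNA-Cys-GCA-15 had 33.3% and 41.2% in the TRUB1 KO and 77.6% and 77.9% in the PUS1 KO. In these the libraries of a genotype differed by up to 7.9 points, well short of the difference. tRNA-Gln-CTG-5 was lower by 33.3 points and tRNA-Arg-TCG-6 by 35.2, the last losing its call without either PUS1 KO library. Position 30 of tRNA-Ile-AAT-5 had 16.4% and 17.5% in the TRUB1 KO and 57.6% and 57.9% in the PUS1 KO, and tRNA-Ile-AAT-6 had 24.4% and 26.3% in the TRUB1 KO and 65.1% and 66.8% in the PUS1 KO. Position 31 of tRNA-Met-CAT-5 had 10.5% and 8.11% in the TRUB1 KO and 42.4% and 42.7% in the PUS1 KO. Position 13 of tRNA-Val-TAC-3, in the D arm, had 40.5% and 45.4% in the TRUB1 KO and 78.8% and 77.6% in the PUS1 KO. Wild type was within 11 points of the TRUB1 KO at each of these sites.

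One site at these positions separated the references. Position 39 of tRNA-Asn-GTT-9, chosen after its values were seen, had 33.1% and 33.9% in the TRUB1 KO, against 20.8% and 21.1% in the PUS1 KO and 46.1% and 45.1% in wild type. It was called lower against wild type, by 12.1 points, and higher against the PUS1 KO, by 12.6 points. Position 20 of the leucine tRNAs, in the D loop, held 5 of the 11 higher sites, as in tRNA-Leu-AAG-1 with 85.3% and 86.2% in the TRUB1 KO, against 70.8% and 70.4% in the PUS1 KO and 80.0% and 79.9% in wild type. Here wild type stood between the knockouts, neither was called against it, and the PUS7 KO read 1.18% and 1.25%. Position 13 of tRNA-Val-CAC held 3 more, as in tRNA-Val-CAC-4 with 62.95% and 66.21% in the TRUB1 KO, against 36.5% and 34.6% in the PUS1 KO and 63.93% and 60.38% in wild type. In mitochondrial tRNA 2 of the 16 other sites were lower in the TRUB1 KO. These were position 31 of mt-TRNL2, with 8.11% and 6.47% in the TRUB1 KO and 36.6% and 32.8% in the PUS1 KO, and position 32 of mt-TRNC, with 6.49% and 6.31% in the TRUB1 KO and 18.7% and 18.2% in the PUS1 KO.

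Median coverage over the 705 cytosolic sites was 23011 and 24711 reads in the TRUB1 KO libraries and 20475 and 19927 in the PUS1 KO libraries, and over the 35 mitochondrial sites 545 to 562 reads. The libraries of a genotype differed by a median of 0.931 points in the TRUB1 KO and 0.342 in the PUS1 KO over the 702 sites, more than sampling alone gives at this depth. The median untreated level was 0.345% in the TRUB1 KO and 0.324% in the PUS1 KO, but single sites reached 55.1%. Among called sites the highest untreated level was 16.3% at position 55, 1.79% at positions 27/28, and 19.5% at lower and 40.5% at higher sites of the remaining positions.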

How the data were processed

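PRAISE libraries of small RNA were compared between genotypes. Per the file headers, the authors' tables hold 2 counts for each library and site, of deletion-bearing reads and of all reads over it. The deposited deletion rates, in percent, equalled the ratio of the counts within 0.001 points at all joined sites of the knockout tables, and the counts were used. The submitters' processing notes name cutadapt, BWA, UMI-tools 1.0.0, SAMtools 1.14 and GRCh38, with no order. How sites were chosen, and how reads shared by similar tRNAs were placed, is not given in the sources used here. The lists of wild type and of the knockouts hold the same sites. Over the sites tested, the lowest wild-type mean was 5.41% in cytosolic and 5.56% in mitochondrial tRNA. In the TRUB1 KO it was 1.55% and 0.648%, and in the PUS1 KO 0.336% and 0%. Whether sites were chosen by their wild-type level was not tested, and a site present only in a knockout may be missing.

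Tables were joined by tRNA name and site. Each site with at least 20 reads in all 4 libraries was tested in a quasi-binomial model. Dispersion was moderated across sites with limma 3.58.1 (R 4.3.3) and kept at 1 or more, and two-sided p-values were Benjamini-Hochberg adjusted over each table. The mitochondrial fit used 1 common dispersion, and its p-values are not printed. Tested on simulated data, the model called 90.8% of cytosolic sites moved by 15 points, 97.7% of those moved by 30 and 0% of unmoved ones, out of 702 sites. For the 33 mitochondrial sites the shares were 96%, 100% and 0%. The simulated libraries had 1 fixed spread beyond counting error, small beside 10 points, so the 0% is not a rate of false calls. In the data, the TRUB1 KO libraries differed by more than 10 points at 3 of 702 cytosolic and 3 of 33 mitochondrial sites. The PUS1 KO libraries did so at 2 and 0, those of wild type at 9 and 0, and those of the PUS7 KO at 23 and 1. The limits of a count of 0 (3 reads) cover counting error only. Members and lists were chosen with earlier results of these data known. Named at position 55 were the 10 largest called falls, the 5 sites nearest 0 and any called rise. At positions 27/28 they were the 8 largest called rises, the 5 nearest 0 and all tRNA-Lys-TTT sites. Elsewhere they were the 10 largest calls, at most 2 per isoacceptor and position, and every site at position 36. In mitochondrial tRNA they were every called site and every site at 55, 27 or 28. Up to 5 sites called against only one of the PUS1 KO and wild type were also named. For isoacceptors, the 5 most and the 5 least negative medians among those with at least 3 sites were given. Others were chosen after their values were seen.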

Additional observations from a re-analysis of the deposited data

How the results depend on the processing

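In cytosolic tRNA 136 sites were lower and 118 higher in the TRUB1 KO than in the PUS1 KO, 82 of the lower at position 55 and 107 of the higher at positions 27/28. A threshold of 20 points gave 59 lower sites, 32 of them at position 55, and 5 points gave 125 at position 55. Against wild type the 77 sites at position 55 became 31 at 20 points and 117 at 5, and the 76 called against both became 31 and 115. Counts summed per isoacceptor and position, which leaves fewer features, gave 26 lower and 28 higher, with 15 lower at position 55, 24 higher at 27/28, and a mean difference of -9.59 points at position 55. With the PUS7 KO in place of the PUS1 KO the mean difference was -11.2 points at position 55 and 0.31 at 27/28, with 5 sites higher and 7 lower at 27/28; in mitochondrial tRNA 2 sites were higher, 1 of them at 27/28. That change of reference also turned the sign at 14 of 72 named sites. The differences then were 19.6 (tRNA-Arg-TCT-1), 21.2 (tRNA-Arg-TCT-2), 21.3 (tRNA-Arg-TCT-3) and 31.2 points (tRNA-Arg-TCT-5) at position 36, 0.31 at position 30 of tRNA-Ile-AAT-5 and 42.9 at position 13 of tRNA-Val-TAC-3. The PUS7 KO was itself almost empty at 2 of these positions, with means of 0.186% over 49 sites of position 13 and 0.0600% over 4 sites of position 36. At positions 27 and 28 the differences were -0.24 (tRNA-Lys-CTT-4), -0.053 (tRNA-Lys-CTT-7), -1.48 (mt-TRNC), -2.82 (mt-TRNE), -3.56 (mt-TRNK), -0.038 (mt-TRNL1), -1.80 (mt-TRNM) and -3.81 (mt-TRNY). None of these differences at positions 27 and 28 was called. Leaving out 1 library gave 117 to 143 lower and 113 to 121 higher sites, with 75 to 84 lower at position 55 and 104 to 108 higher at 27/28; against wild type 74 to 79 and against both 72 to 79 were lower at position 55. Mean differences ran between -10.65 and -10.17 points at position 55 and between 31.99 and 33.51 at 27/28. Mitochondrial counts stayed at 8 and 11. Libraries of the same number did not deviate together (Pearson r = 0.082 over 702 sites), and a replicate block gave 132 lower and 117 higher sites, 82 at position 55 and 107 at 27/28, with 75 against wild type and 74 against both, and lost 1 named call, at position 36 of tRNA-Arg-TCT-5. Minimums of 1 or 100 reads, limma on points or log-odds, Fisher's exact test, a joint fit and subtraction of the untreated level kept every count within 1.5 times. Near-equal tRNAs, sites under 100 reads and the technical nature of the replicates limit these counts.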
